A study of Rattus norvegicus with 10 samples.

Results

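GABA synthesis, transport and breakdown is represented here by the genes Gad1, Gad2, Slc32a1, Slc6a11 and Abat, measured in prefrontal cortex from 10 male rats of the Lewis strain. The members are all array probe sets (groups of short probes for 1 transcript) that the platform annotation assigns to exactly 1 of these symbols. There are 8 such probe sets, covering all 5 genes, of 31042 probe sets on the array without controls. All rats were of 1 inbred strain and weighed 200 to 250 g, and the labels state that no treatment was given and do not state an age, so the rats form 1 group with no control. They were housed singly, came from a set of 40 that went through tests of sugar feeding, locomotion, acoustic startle and its prepulse inhibition, and were killed 6 days after the last test. Each is a separate animal and gave 1 array of the anterior frontal cortex, from which the olfactory bulb had been left out, and each carries its behaviour scores in the labels, without units. The series title asks how brain mRNA levels relate to behaviour among inbred rats.

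GABA is the main inhibitory transmitter of the cortex, where local interneurons release it. It is made from glutamate by 2 decarboxylases, the product of Gad1, which serves the whole cell, and that of Gad2, which is concentrated at nerve endings. The Slc32a1 protein loads GABA into synaptic vesicles, the Slc6a11 protein takes it up again, largely into astrocytes, and the transaminase encoded by Abat breaks it down in mitochondria. Projection neurons of the striatum, which lies beneath the frontal cortex, also use GABA.

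The members did not behave as a block between rats. Slc32a1 differed 4.11-fold between its lowest and highest rat, and Abat followed it at a smaller size. The correlation (r) with Slc32a1 was 0.61 for Gad1, which did not pass, and -0.0093 for Gad2. The upstream sequences of Slc32a1 and Gad2 are shown because, of the 4 genes with a probe set above the signal filter given below, these had the highest and the lowest correlation with the striatal markers described further on. They are the 250 bases before the RefSeq start of each gene in the GRCr8 assembly, 5′ to 3′ on the plus strand, with capitals marking TGACG (either strand), the core of the cyclic AMP response element.
Slc32a1, chr3:167686995-167687244: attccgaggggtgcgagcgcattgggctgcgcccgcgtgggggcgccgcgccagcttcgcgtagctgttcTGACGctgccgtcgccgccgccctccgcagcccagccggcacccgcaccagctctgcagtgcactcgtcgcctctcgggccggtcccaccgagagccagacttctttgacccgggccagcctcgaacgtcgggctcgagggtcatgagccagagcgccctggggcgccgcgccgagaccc
Gad2, chr17:89671468-89671717: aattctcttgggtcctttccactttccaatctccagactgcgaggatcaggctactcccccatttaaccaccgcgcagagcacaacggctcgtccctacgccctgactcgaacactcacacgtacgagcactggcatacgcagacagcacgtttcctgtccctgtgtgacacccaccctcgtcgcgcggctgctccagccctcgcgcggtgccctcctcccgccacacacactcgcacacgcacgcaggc
The Slc32a1 window holds TGACG 1 time and the Gad2 window 0 times, and 18.2% of 33469 windows of this length hold it. Neither window holds TATAAA or TAATTA, found in 12.9% and 4.9% of the windows on either strand. The Slc32a1 window has 34 CpG dinucleotides and the Gad2 window 22, more than 97.0% and 86.3% of all windows, whose median count is 5. A match of letters is a description, not a binding site, and the array data do not bear on it. The promoter table held 4 of the 5 members, Gad1, Gad2, Slc32a1 and Slc6a11.

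All values below are log2 expression summaries as deposited, where a difference of 1 is a doubling of signal. Of the 8 probe sets 5 were in the upper 50% by their mean value in the 10 rats (3.99 or more), and these covered Gad1, Gad2, Slc32a1 and Abat. For comparison, the 15521 probe sets above that level had a median SD between rats of 0.13 and a median ratio of highest to lowest rat of 1.35. The arrays had medians of 3.91 to 4.02, and their number limits the precision of every slope and correlation. Markers of cortical excitatory neurons were present in every rat: 8 of 9 lay above the filter, among them the vesicular glutamate transporter gene Slc17a7 at 12.50 to 12.86.

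For Gad1, the gene of the decarboxylase of the whole cell, the main probe set (the one of highest mean) was lowest in rat 5 at 11.67 and highest in rat 7 at 12.18, with a median of 11.94 (SD 0.17, n = 10). Rats 7 and 4 stood at the top, at 12.18 and 12.17, and rats 5 and 3 at the bottom. Its range was 1.43-fold, and 67.3% of the probe sets above the filter had a smaller SD. The second Gad1 probe set ran from 6.47 in rat 7 through a median of 7.09 to 8.08 in rat 4 (SD 0.50, n = 10). Rat 7 therefore had the highest value of the 1 probe set and the lowest of the other. The 3.05-fold range of the second probe set exceeded that of the main probe set, and 97.5% of the probe sets had a smaller SD. The suffix of its identifier marks a probe set that can read several transcripts of 1 gene.

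For Gad2, the gene of the nerve ending decarboxylase, the probe set ran from 9.62 in rat 6 through a median of 10.01 to 10.28 in rat 4 (SD 0.20, n = 10), a 1.58-fold range. Rats 6, 7 and 5 were lowest, at 9.62, 9.77 and 9.79, and rats 4, 2 and 1 highest, at 10.28, 10.19 and 10.08. Rat 7 thus lay at the top for the main Gad1 probe set, at the bottom for the second, and near the bottom for Gad2.

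For Slc32a1, the vesicular GABA transporter gene, the probe set ran from 6.87 in rat 1 through a median of 7.60 to 8.91 in rat 4 (SD 0.64, n = 10). Rats 4, 7 and 10 were highest at 8.91, 8.55 and 8.12, rats 5, 8, 6, 2 and 3 lay between 7.46 and 7.82, and rats 9 and 1 were at 6.95 and 6.87. Of the probe sets above the filter 98.6% had a smaller SD.

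For Abat, the GABA transaminase gene, the main probe set ran from 7.05 in rat 9 through a median of 7.31 to 7.63 in rat 4 (SD 0.18, n = 10), a 1.50-fold range. Rats 4, 10 and 7 were highest, at 7.63, 7.44 and 7.40, and rats 9, 3 and 1 lowest. The other Abat probe sets lay below the filter in every rat, one at 2.63 to 2.95 and the other at 2.07 to 2.25. For Slc6a11, the glial GABA uptake gene, the single probe set also lay below the filter in every rat, at 2.40 to 2.65 with a median of 2.48. Such low values say only that these probe sets gave little signal, and they bear on no difference between rats.

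**Figure D1:**
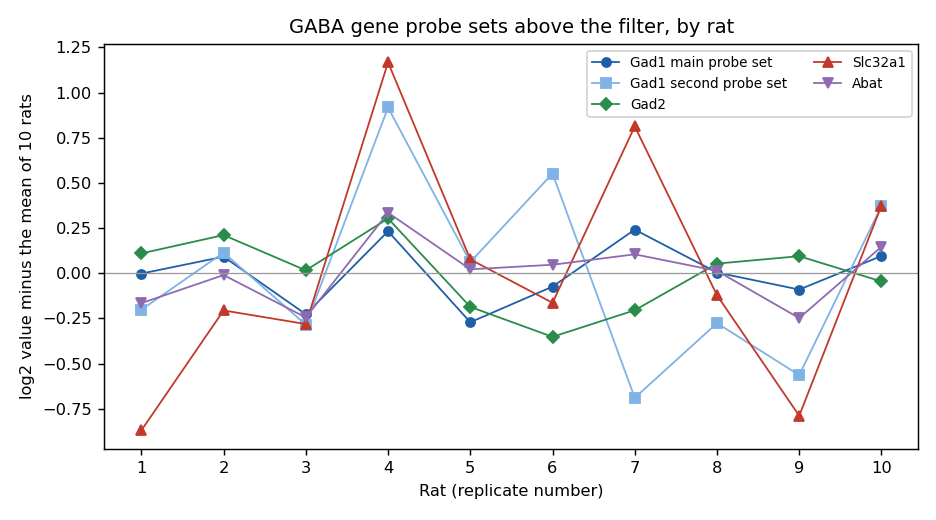
log2 value of each GABA gene probe set above the filter minus its own mean over the 10 rats (vertical axis) by rat (horizontal axis), 1 point per array, with lines only to guide the eye. Slc32a1 peaks in rats 4, 7 and 10, while the second Gad1 probe set is lowest in rat 7 and Gad2 is below its mean there.

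Whether the members varied together between rats was tested on the main probe sets of the 4 genes above the filter, which gave 6 pairs. Slc32a1 and Abat, the vesicular loading and the breakdown gene, had r = 0.89 with a two-sided permutation p of 0.00073, which became 0.00438 after adjustment over the 6 pairs. The rank correlation was rho = 0.92, where the permutation p was 0.00055 and its adjusted value 0.0033. Without rats 4 and 7, the 2 farthest from the median of Slc32a1, r was 0.83. Leaving out each rat in turn gave 0.81 to 0.94, with adjusted p of 0.00222 to 0.0428. Of the 15519 other probe sets above the filter, 0.193% had a correlation with Slc32a1 at least as large in size.

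The 5 other pairs did not pass an adjusted p of 0.05. Gad1 and Abat had r = 0.66 with a permutation p of 0.0376 (0.113 once adjusted), and rho = 0.65 with a permutation p of 0.0478 (0.144 once adjusted), with r = 0.85 without rats 5 and 7. Gad1 and Slc32a1 had r = 0.61 with a permutation p of 0.0592 (0.118 once adjusted), and rho = 0.60 with a permutation p of 0.0739 (0.148 once adjusted), with r = 0.69 without the same rats. Without rat 5 both of these pairs passed, at r = 0.82 and r = 0.76 (adjusted p = 0.0237 and 0.0325). The decarboxylase genes Gad1 and Gad2 had r = 0.32 with a permutation p of 0.365 (0.547 once adjusted), and rho = 0.20 with a permutation p of 0.582 (0.582 once adjusted), with r = 0.51 without rats 5 and 7. Gad2 had r = -0.0093 with Slc32a1 (permutation p = 0.980, adjusted 0.980; rho = -0.21, permutation p = 0.560, adjusted 0.582) and r = 0.018 with Abat (permutation p = 0.960, adjusted 0.980; rho = -0.22, permutation p = 0.538, adjusted 0.582). Without rats 4 and 6 those values were -0.73 and -0.49. Rat 4 was highest for all 3 genes, and without it alone they were -0.53 and -0.50 (adjusted p = 0.255 for both).

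The members were also set against lists of marker genes of cell types that the dissected piece could hold. Of 13 striatal projection neuron markers 10 lay above the filter, and their score, the mean of centred log2 values, ran from -0.59 to 1.38 with rats 7, 4 and 10 highest at 1.38, 0.86 and 0.46. Drd1, the D1 dopamine receptor gene of that list, ran from 5.79 to 9.60. Of the markers below the filter Adora2a ran from 2.09 to 6.48 and Gpr6 from 2.94 to 3.34. In bulk tissue, fewer cells of a type and less RNA per cell cannot be told apart.

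Slc32a1 followed the striatal score, with r = 0.88 with a permutation p of 0.00082, which became 0.0164 after adjustment over the 20 pairs. The rank correlation was rho = 0.89, where the permutation p was 0.00124 and its adjusted value 0.0124. Without rats 4 and 7, r was 0.76, and without rat 10 it was 0.88 but with an adjusted p of 0.112. Of the other 15520 probe sets above the filter, which include the markers themselves, 0.741% had a correlation with the score at least as large in size. Abat had r = 0.74 with the striatal score, at a permutation p of 0.0140 (0.0807 once adjusted), and rho = 0.83 with a permutation p of 0.00477 (0.0239 once adjusted), with r = 0.73 without rats 4 and 7, and 5.62% of probe sets had as large a value. Without rat 7 alone the Abat value was 0.86 (adjusted p = 0.0102). Gad1 had r = 0.71 with a permutation p of 0.0228 (0.0912 once adjusted), and rho = 0.56 with a permutation p of 0.0964 (0.302 once adjusted), and r was 0.27 without rats 4 and 7, on which that relation rested. After quantile normalization Gad1 and Abat had r = 0.89 and 0.80 with the striatal score (adjusted p = 0.0108 and 0.0290). Gad2 had r = -0.083 with a permutation p of 0.820 (0.876 once adjusted), and rho = -0.35 with a permutation p of 0.332 (0.604 once adjusted), with r = -0.23 without rats 4 and 7.

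With the striatal score regressed out of both genes, an alternative chosen after the data were seen, Slc32a1 and Abat had r = 0.74 (permutation p = 0.0186, adjusted 0.112). Gad1 and Slc32a1 then had r = -0.042 (permutation p = 0.907, adjusted 0.907). No pair passed the adjusted threshold in that setting.

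**Figure D2:**
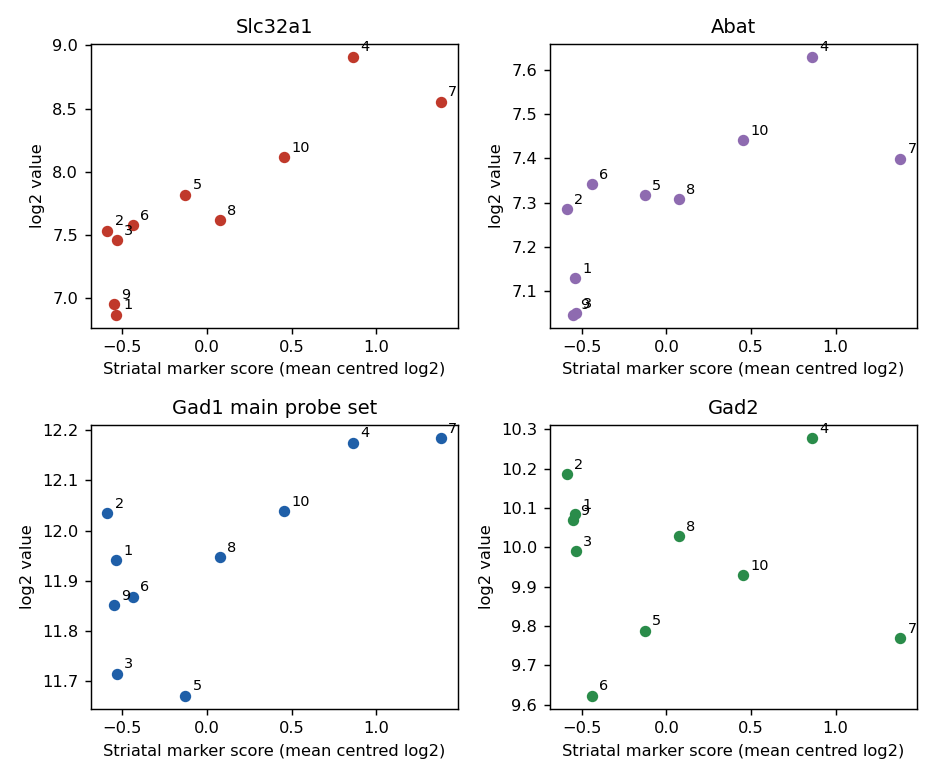
log2 value of Slc32a1, Abat, Gad1 and Gad2 (vertical axes) against the striatal marker score, the mean centred log2 value of 10 markers (horizontal axes), 1 numbered point per rat. Slc32a1 is highest in rats 4, 7 and 10, whose striatal scores are 0.86, 1.38 and 0.46, while Gad2 is near its lowest in rat 7.

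Myelin markers, 11 of 12 above the filter with scores from -0.58 to 0.48, were highest in rats 7 and 4, as the striatal score was. Abat had r = 0.80 with the myelin score, at a permutation p of 0.00567 (0.0567 once adjusted), and rho = 0.90 with a permutation p of 0.00097 (0.0124 once adjusted), with r = 0.86 without rats 2 and 3. It passed without rat 2 alone (r = 0.87, adjusted p = 0.0274) and without rat 7 alone (r = 0.83, adjusted p = 0.0420), and after quantile normalization (r = 0.81, adjusted p = 0.0290). Slc32a1 had r = 0.73 with a permutation p of 0.0161 (0.0807 once adjusted), and rho = 0.84 with a permutation p of 0.00372 (0.0239 once adjusted), with r = 0.92 without the same rats. Gad1 and Gad2 had r = 0.58 and r = -0.35 with that score (permutation p = 0.0807 and 0.318, adjusted 0.231 and 0.706; rho = 0.62 and -0.36, permutation p = 0.0596 and 0.313, adjusted 0.238 and 0.604), with r = 0.65 and r = -0.26 without rats 2 and 3.

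Interneuron markers, 10 of 19 above the filter, had a narrow range of scores, from -0.16 in rat 7 to 0.11 in rat 8. The interneuron genes Pvalb and Sst spanned 1.40-fold and 1.25-fold, but Reln, Crhbp and Erbb4 spanned 1.74-fold, 1.71-fold and 1.56-fold. The remaining markers lay between 1.27-fold for Cck and 1.34-fold for Calb1. This score also averages markers that moved differently: Pvalb, Cck, Reln and Crhbp were lowest in rat 7, where Npy and Erbb4 were above their means. Gad2 was nearest to this score, with r = 0.60 (permutation p = 0.0701, adjusted 0.231; rho = 0.42, permutation p = 0.231, adjusted 0.576; r = 0.55 without rats 7 and 8). Gad1, Slc32a1 and Abat had r = 0.15, -0.051 and 0.17 with it (permutation p = 0.684, 0.888 and 0.648, adjusted 0.868, 0.888 and 0.868; rho = 0.26, 0.079 and 0.10, permutation p = 0.472, 0.838 and 0.784, adjusted 0.752, 0.973 and 0.973). Without rats 7 and 8 these values were 0.74, 0.39 and 0.42. Astrocyte and excitatory neuron scores, from 11 of 12 and 8 of 9 markers, had adjusted permutation p of at least 0.332 for r and 0.302 for rho with each of the 4 genes. The largest of these r was 0.51, for the astrocyte score with Gad1, or 0.71 without rats 5 and 6. Leaving out single rats it was 0.32 to 0.80, with adjusted permutation p of 0.0617 or more. The excitatory score mixes opposed markers: Neurod6, Tbr1, Rorb and Fezf2 were lowest in rat 7, while Bcl11b was highest there. Bcl11b was highest in rats 7, 4 and 10, at 12.60, 12.39 and 12.24, the same rats that led the striatal score. The score of 5 of 6 meningeal markers ran from -0.95 to 1.26, highest in rats 9 and 3, where Abat was lowest. Of 5 olfactory bulb markers only Cdhr1 lay above the filter, and Eomes, Doc2g and Th lay below it. The part of these cell types in the differences was otherwise not tested.

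The disagreement of the 2 Gad1 probe sets was examined after the data were seen. They had r = 0.19 with a permutation p of 0.595, which became 0.872 after adjustment over the 10 added pairs. The rank correlation was rho = 0.16, where the permutation p was 0.657 and its adjusted value 0.730, and r was -0.12 without rats 4 and 6. A measure of RNA quality, the level of the 3′ minus the 5′ probe sets of the actin and GAPDH array controls, ran from 1.14 in rat 4 to 1.46 in rat 7. The second Gad1 probe set had r = -0.85 with that measure, at a permutation p of 0.00145 (0.0145 once adjusted), and rho = -0.84 with a permutation p of 0.00377 (0.0377 once adjusted), with r = -0.68 without rats 4 and 7. Of the other 15520 probe sets 0.857% had as large a value. Without rat 4 alone r was -0.75 and the adjusted p 0.119. The main Gad1 probe set had r = -0.064 with the measure (permutation p = 0.872, adjusted 0.872; rho = -0.28, permutation p = 0.426, adjusted 0.711), and leaving out rats 4 and 7 it had -0.53. Of the others, Gad2, Slc32a1 and Abat had r = -0.43, -0.11 and -0.34 (permutation p = 0.212, 0.780 and 0.332, adjusted 0.530, 0.872 and 0.663; rho = -0.28, -0.22 and -0.43, permutation p = 0.427, 0.539 and 0.219, adjusted 0.711, 0.730 and 0.711), and r = 0.37, -0.26 and -0.46 without rats 4 and 7. Without rat 7 alone the main Gad1 probe set and Abat had r = -0.74 and -0.76 with the measure (adjusted p = 0.0383 for both), and without rat 6 alone Gad2 had r = -0.80 (adjusted p = 0.0385). The second Gad1 probe set had r = 0.67 with Abat (permutation p = 0.0324, adjusted 0.162; rho = 0.58, permutation p = 0.0880, adjusted 0.440), and 0.40 without rats 4 and 6. Without rat 7 it had r = 0.90 with Abat and r = 0.83 with Slc32a1 (adjusted p = 0.0123 and 0.0179), so these calls turned on single rats.

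**Figure D3:**
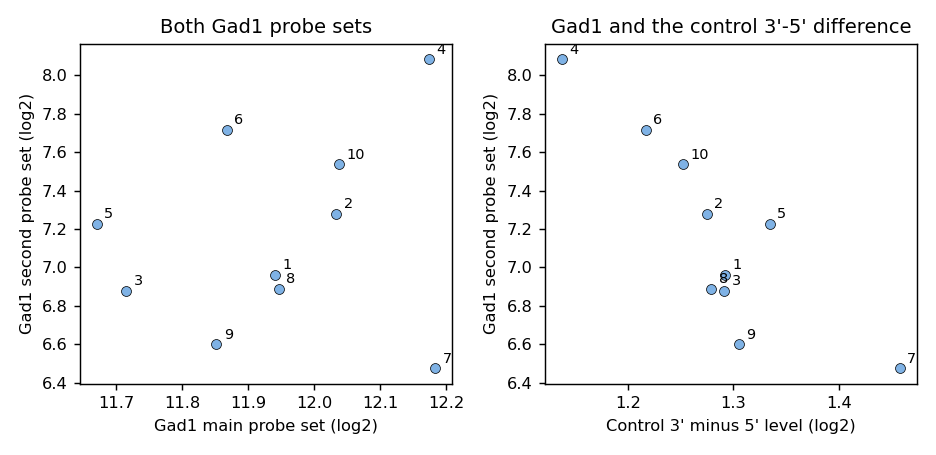
log2 value of the second Gad1 probe set (vertical axes) against that of the main Gad1 probe set (left) and against the 3′ minus 5′ level of the actin and GAPDH controls in log2 (right), 1 numbered point per rat. Rat 7 is highest for the main probe set and lowest for the other, and it has the largest 3′ minus 5′ difference, 1.46.

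The transcripts most like each of the 4 genes over the 10 rats were taken among the 11576 probe sets above the filter with 1 symbol, as a description with no test. The highest of so many values is large by selection. Even the Slc6a11 probe set, which lay below the filter, reached r = 0.96 in the same way. Slc32a1 was most like Abcg1, a cholesterol exporter gene (r = 0.96), Gnal, the G protein alpha subunit gene of olfactory and striatal neurons (r = 0.95), and Scn4b, a sodium channel beta subunit gene (r = 0.95). Scn4b spanned 5.06-fold and Gnal 2.36-fold between rats, against 1.16-fold for Abcg1. The values most opposed to Slc32a1 were those of Hycc2 (r = -0.92) and the ubiquitin-activating enzyme gene Uba6 (r = -0.92).

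Abat was most like Inpp5f, a phosphoinositide phosphatase gene (r = 0.95), Isoc1 (r = 0.95) and Agpat3, an acyltransferase gene of phospholipid synthesis (r = 0.94), and most opposed to LOC102555617 (r = -0.90) and the collagen gene Col16a1 (r = -0.88). Gad1 was most like Lmo3, a LIM domain cofactor gene (r = 0.97), Rab40b (r = 0.97) and Zfp68 (r = 0.95), and most opposed to Arhgef1 (r = -0.90) and the collagen gene Col6a1 (r = -0.90). Gad2 was most like Wdr37 (r = 0.94), Bfar (r = 0.89) and Bcl7a (r = 0.88), and most opposed to Mms19 (r = -0.83) and Rundc3a (r = -0.82). The lists of the 4 genes shared no gene, but so few genes were listed out of 11576 probe sets that this says little about whether the 4 vary together.

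The behaviour comparisons asked whether the members rise or fall with each score. Slopes from limma give the change in log2 value for 1 SD of a score, with the SE, and p-values were adjusted over all 15521 probe sets above the filter. No member passed an adjusted p of 0.05 for any score, and neither did any other probe set (0% for each score). The eBayes fit with trend and robust options also called 0.

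For acoustic startle, which ran from 363 to 943 in the 10 rats, Gad2 had the member slope of smallest p. It was lower in rats with larger startle, at -0.14 ± 0.05 per SD (SE, n = 10; limma unadjusted p = 0.0140, adjusted p = 0.808), a 0.907-fold level per SD. Rats 6 and 7, with startle of 855 and 943, had the lowest Gad2, and rats 4 and 2, with 510 and 363, the highest, but rat 9 combined startle of 927 with Gad2 at 10.07. Leaving out each rat in turn gave slopes of -0.18 to -0.12 with adjusted p of 0.420 to 1.00. With the striatal score as a covariate the slope was -0.15 ± 0.05. Gad2 was the 1 of 5 member probe sets with an unadjusted p under 0.05, against 5.59% of all probe sets (1.28% with positive and 4.3% with negative slopes). The slopes of the others were -0.17 ± 0.15 for the second Gad1 probe set, -0.031 ± 0.056 for the main Gad1 probe set, -0.012 ± 0.059 for Abat and 0.078 ± 0.198 for Slc32a1. That of Slc32a1 was -0.087 without rat 1 and -0.057 without rat 7, and that of Abat 0.025 without rat 4 and 0.029 without rat 9. The median of the 5 was -0.031, against -0.015 over all probe sets.

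For locomotion, from 9420 to 17987, all 5 member probe sets had positive slopes with a median of 0.11, against 0.0145 over all probe sets. The share of positive slopes over all probe sets was not counted, and the 5 are not independent, as 2 of them are for Gad1. Of the 5 probe sets 0 had an unadjusted p under 0.05, against 2.93% of all (2.31% with positive and 0.619% with negative slopes). Gad2 had 0.11 ± 0.06 (SE, n = 10; limma unadjusted p = 0.0746, adjusted p = 1.00), Gad1 0.074 ± 0.052, the second Gad1 probe set 0.11 ± 0.15, Slc32a1 0.15 ± 0.19 and Abat 0.039 ± 0.058. Rat 4 had the highest locomotion score and the highest Gad2, Slc32a1 and Abat. Without it the slopes were -0.14 for Slc32a1, -0.12 for the second Gad1 probe set and -0.047 for Abat, while Gad2 and the main Gad1 probe set had 0.059 and 0.031. With the 4 main scores in 1 model these 2 had -0.049 and -0.044. Over all rats left out in turn, the slope of Slc32a1 reached 0.38.

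For sugar feeding, from 0 to 2.15, Gad1 had the largest slope against its error, 0.084 ± 0.051 (SE, n = 10; limma unadjusted p = 0.127, adjusted p = 1.00). It was 0.034 without rat 5 and 0.055 without rat 7. Leaving out rat 3 gave 0.13 (limma unadjusted p = 0.00735, adjusted p = 0.734), and the mean of both Gad1 probe sets gave 0.0083. With the 4 main scores in 1 model it was 0.18. Slc32a1 had 0.093 ± 0.198, Gad2 0.048 ± 0.063, Abat -0.0065 ± 0.059 and the second Gad1 probe set -0.067 ± 0.157. Of the 5 probe sets 0 had an unadjusted p under 0.05, against 2.13% of all (1.45% with positive and 0.677% with negative slopes). Without rat 7, which had the highest sugar feeding score, the slope of Slc32a1 was -0.039 and that of the second Gad1 probe set 0.046.

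For prepulse inhibition, the damping of a startle by a weaker sound before it, which ran from 6.80 to 42.5, Slc32a1 had the largest member slope, 0.28 ± 0.18 (SE, n = 10; limma unadjusted p = 0.145, adjusted p = 0.751). Rat 1, with the lowest score of 6.80, had the lowest Slc32a1 at 6.87, and rat 4, with the highest score of 42.5, the highest at 8.91, but rat 9 had 37.4 and Slc32a1 at 6.95. With the striatal score as a covariate the slope was 0.064 ± 0.106 (limma adjusted p = 0.974), and leaving out single rats gave 0.13 to 0.40. Abat had 0.074 ± 0.055, the second Gad1 probe set 0.078 ± 0.156, Gad1 -0.0022 ± 0.057 and Gad2 -0.0087 ± 0.065. The Abat slope was 0.023 with the striatal score as a covariate, 0.15 with the 4 main scores in 1 model, 0.027 without rat 4 and 0.11 without rat 9 (limma unadjusted p = 0.0457, adjusted p = 0.650 without rat 9). Again 0 of 5 had an unadjusted p under 0.05, against 7.41% of all probe sets (1.97% with positive and 5.44% with negative slopes). Of the striatal markers 10 of 10 had positive slopes on this score, with a median of 0.28, but 0 of 10 had an unadjusted p under 0.05. The same 10 were positive for startle, locomotion and sugar feeding and negative for the plus maze score, again with 0 under 0.05. These markers varied largely together, with their score highest in rats 7, 4 and 10, so a shared sign is not 10 separate observations. The share of all probe sets with the same sign was not counted.

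The plus maze score was given for 7 rats and ran from 0 to 60.3. Gad1 had a slope of -0.13 ± 0.05 (SE, n = 7; limma unadjusted p = 0.0309, adjusted p = 0.682), the 1 of 5 with an unadjusted p under 0.05, against 6.95% of all probe sets (1.2% with positive and 5.74% with negative slopes). That slope rested on rat 5, which had the highest score and the lowest Gad1, and was 0.013 without it. The slopes of the others were 0.12 ± 0.19 for the second Gad1 probe set, -0.055 ± 0.073 for Gad2, 0.0040 ± 0.257 for Slc32a1 and 0.0015 ± 0.063 for Abat, and that of Gad2 was 0.12 without rat 5. That of the second Gad1 probe set was 0.36 without rat 5 and 0.027 without rat 7. The 3 probe sets below the filter, fitted without it, had slopes of -0.040 to 0.034 for the 5 scores, with limma adjusted p of 0.945 or more.

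**Figure D4:**
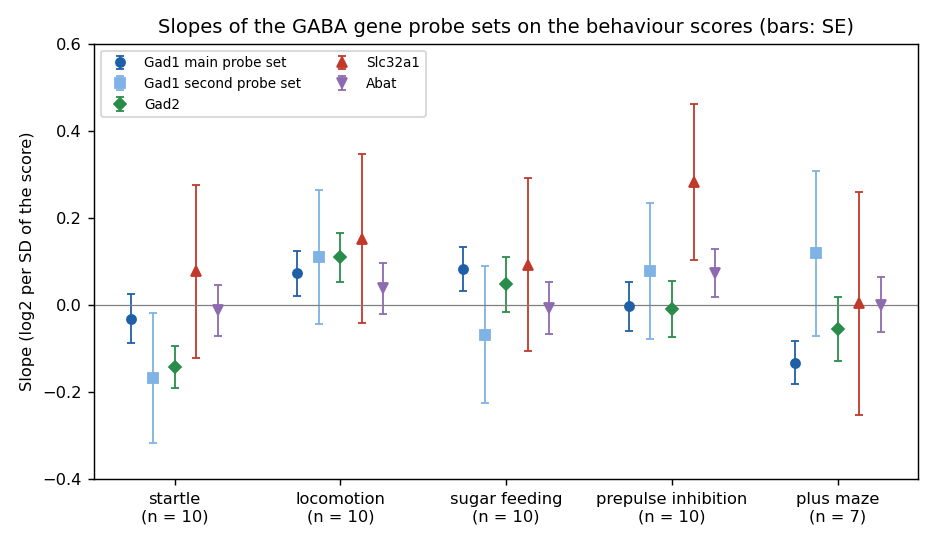
Slope of each GABA gene probe set above the filter (log2 per SD of the score, vertical axis) on the 5 behaviour scores (horizontal axis), with bars of 1 SE. Gad2 lies below 0 for startle at -0.14, and no slope passed an adjusted p of 0.05.

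Other genes of GABA and glutamate handling were described from a list of 17, of which 10 lay above the filter and 2, the GABA transporter gene Slc6a13 and the amino acid transporter gene Slc38a5, below it. The remaining 5 were not analysed here. Of the 10, 0 passed the adjusted threshold for any score (limma), and 0 for startle, 0 for locomotion, 1 for sugar feeding, 2 for prepulse inhibition and 0 for the plus maze score had an unadjusted p under 0.05, where the shares over all probe sets were 5.59%, 2.93%, 2.13%, 7.41% and 6.95%. Aldh9a1, an aldehyde dehydrogenase gene of a minor route to GABA, had slopes of 0.11 ± 0.04 with sugar feeding and -0.11 ± 0.04 with prepulse inhibition (limma unadjusted p = 0.0335 and 0.0333, adjusted p = 1.00 and 0.646). Slc38a1, a glutamine transporter gene, had -0.065 ± 0.026 with prepulse inhibition (limma unadjusted p = 0.0281, adjusted p = 0.630). Aldh5a1, whose enzyme acts after that of Abat, had slopes of 0.0042 to 0.032 for the 4 main scores, and its plus maze slope was -0.038. Glul, the astrocytic glutamine synthetase gene, had slopes of -0.060 to 0.060 for them, and its plus maze slope was -0.088. Gabbr1 and Gabbr2, the subunit genes of the metabotropic GABA receptor, spanned 1.28-fold and 1.70-fold between rats. The median slope of the 10 was -0.022 for startle, 0.035 for locomotion, 0.031 for sugar feeding, -0.017 for prepulse inhibition and -0.071 for the plus maze score, against -0.015, 0.0145, 0.0082, -0.0105 and -0.014 over all probe sets. For the plus maze score 8 of the 10 slopes were negative, where the median over all probe sets was negative too and the share of negative slopes was not counted.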

How the data were processed

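The authors deposited 1 log2 value for each probe set and rat. GCRMA and R 2.6.2 are named in the submitters' processing notes, with no GCRMA version and no settings. GCRMA estimates background from probe sequence, so values near its floor are compressed, and levels of different genes are not read against each other here. The filter, the choice of main probe sets and the 3′ minus 5′ measure do use levels of different probe sets. The 57 array controls were left out. Symbols came from the platform annotation, and the gene numbers of 20758 of 20826 probe sets with 1 symbol matched RefSeq (GRCr8).

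The members, lists and tests were chosen with earlier results of these data known. Every probe set of a member was reported, and the main probe set of a gene is the one of highest mean. Other genes named were 17 of the pathway, markers, and for each member the 3 of highest and 2 of lowest r. For Slc6a11, whose values lie below the filter, only the highest r is given. The filter kept 50% of probe sets by mean, 15521 in all. limma 3.58.1 in R 4.3.3 fitted each score, scaled to an SD of 1, with two-sided tests and Benjamini-Hochberg adjustment at 0.05. The limma fit was checked only on simulated data with planted slopes far larger than those found here. That check does not show the power for slopes of the size seen. Permutation tests of r and rho used 100000 resamples. The spike-in level is the mean of 18 control probe sets. Alternatives were no filter, other scalings, ranks of the scores, covariates, 4 scores in 1 model, other eBayes options and leaving out each rat.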

Additional observations from a re-analysis of the deposited data

Results flagged for a closer look

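The lowest of the Abat probe sets stood apart in rat 7, at 2.25 log2 against 2.07 to 2.14 in the other 9 rats: the gap to the next rat was 0.594 of the whole range, above the critical value of 0.466 for 10 samples. This probe set lay below the filter in every rat, and chance flags about 1 in 20 groups, while 8 probe sets were examined.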

How the results depend on the processing

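No paired analysis was possible because all 10 rats form 1 group, with 1 array from each. The count of member probe sets past the adjusted threshold, and that of all probe sets, was 0 for every score in every alternative run. The 25 member slopes were refitted 425 times in all. The sign held in 373 fits and turned in 52, the smallest adjusted p was 0.420, and every slope that turned had an unadjusted p of at least 0.112. The cause of these turns was not tested.

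Slopes that turned with arrays centred on their medians were Abat -0.014 and Slc32a1 -0.012 (plus maze) and Gad1 0.0036 (prepulse inhibition). After quantile normalization they were Abat 0.0099 and Gad1 0.0017 (startle), and Gad1 0.031 and Gad2 0.014 (prepulse inhibition). With ranks they were Gad1 0.019 and Gad2 0.0035 (prepulse inhibition), and Gad2 0.015 and Slc32a1 -0.015 (plus maze). With the spike-in covariate they were Gad1 0.012 and Gad2 0.0083 (prepulse inhibition), and with the striatal covariate Slc32a1 -0.087 (startle) and -0.031 (sugar feeding). With 4 scores in 1 model they were Slc32a1 -0.116 (startle); Abat -0.0075, Gad1 -0.044, Gad2 -0.049 and Slc32a1 -0.082 (locomotion); Abat 0.083 (sugar feeding); Gad1 0.137 and Gad2 0.146 (prepulse inhibition). The mean of both Gad1 probe sets gave 0.038 (prepulse inhibition).

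Leaving out 1 rat at a time, slopes on startle ran from -0.087 to 0.224 for Slc32a1 and -0.049 to 0.029 for Abat. On locomotion they ran from -0.140 to 0.382 for Slc32a1, -0.047 to 0.085 for Abat and -0.122 to 0.189 for the second Gad1 probe set. On sugar feeding they ran from -0.039 to 0.223 for Slc32a1, -0.036 to 0.028 for Abat and -0.139 to 0.046 for the second Gad1 probe set. On prepulse inhibition they ran from -0.063 to 0.031 for Gad2, -0.043 to 0.034 for Gad1 and -0.069 to 0.148 for the second Gad1 probe set. On the plus maze score they ran from -0.014 to 0.062 for Abat, -0.053 to 0.147 for Slc32a1, -0.156 to 0.013 for Gad1 and -0.099 to 0.118 for Gad2.

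Of the 6 pairs of members 1 passed the adjusted threshold by r. It was 2 after quantile normalization, 0 with the striatal score regressed out, and 1 to 3 leaving out single rats (3 without rat 5). Of the 20 pairs with marker scores 1 passed by r and 4 by rho. By r it was 4 after quantile normalization and 0 to 3 leaving out single rats (0 without rat 10, 2 without rat 2, 3 without rat 7). Of the 10 pairs added after the data were seen 1 passed, against 0 without rat 4, 2 without rat 6 and 5 without rat 7. After quantile normalization Gad1 passed with Slc32a1 (r = 0.77) and with the striatal score (r = 0.89), and Abat with the striatal (r = 0.80) and myelin scores (r = 0.81).

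Correlations that turned were Gad2 with Slc32a1 (0.060 with centred arrays, 0.137 with the striatal score regressed out), Gad1 with Slc32a1 (-0.042 there), and Gad2 with Abat (-0.072 after quantile normalization). With centred arrays so did the excitatory score with Gad1 (0.112) and the interneuron score with Slc32a1 (0.092, and 0.040 after quantile normalization). After quantile normalization the excitatory score had -0.041 with Abat and -0.049 with Gad2, and the 3′ minus 5′ measure 0.086 with Gad1. Leaving out rats, Gad2 had -0.533 to 0.179 with Slc32a1, -0.505 to 0.113 with Abat, -0.414 to 0.254 with the striatal, -0.423 to 0.356 with the astrocyte and -0.230 to 0.558 with the excitatory score. Slc32a1 had -0.035 to 0.302 with the astrocyte, -0.294 to 0.337 with the interneuron and -0.365 to 0.238 with the excitatory score. Gad1 had -0.298 to 0.393 with the excitatory and Abat -0.0048 to 0.392 with the interneuron score. The second Gad1 probe set had -0.163 to 0.558 with Gad1, -0.307 to 0.515 with Gad2 and -0.294 to 0.663 with the striatal score. The 3′ minus 5′ measure had -0.741 to 0.340 with Gad1, -0.731 to 0.496 with Slc32a1 and -0.757 to 0.110 with Abat.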
